A study of Rattus norvegicus with 6 samples.

Results

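The genes described here encode subunits of voltage-gated calcium channels, measured in rat spinal cord 35 days after a contusion and in uninjured cord. They were taken by name: every probe set annotated to exactly one of 10 genes, Cacna1a, Cacna1b, Cacna1c, Cacna1d, Cacna1g, Cacna2d1, Cacnb1, Cacnb2, Cacnb3 and Cacnb4. All 10 genes were on the array, with 21 probe sets among the 8740 that are not controls. Total RNA of contused cord, sampled at the epicenter of the lesion at about thoracic segment 8, was measured on 3 arrays. Cord of animals with no injury, sampled at the same level, was measured on 3 more. The labels give no strain, sex or age, no sham operation and no day for the uninjured animals, so surgery, elapsed time and processing cannot be told apart from the contusion. They do not state that each array is a separate animal. If some are not, the p-values given here rest on technical variation.

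A voltage-gated calcium channel opens when the membrane depolarises and lets calcium into the cell. Its pore is the alpha1 subunit, and the pore genes fall into P/Q-type (Cacna1a) and N-type (Cacna1b) channels, which trigger transmitter release at nerve terminals, L-type channels (Cacna1c and Cacna1d), which serve neuronal cell bodies and dendrites, smooth muscle and heart, and low-threshold T-type channels (Cacna1g), which shape burst firing. Cytoplasmic beta subunits (Cacnb1 to Cacnb4) and the extracellular alpha2delta subunit (Cacna2d1) bring P/Q-, N- and L-type pores to the surface and tune their gating. Cacna2d1 encodes the binding site of gabapentin and pregabalin, drugs used for neuropathic pain, and in rats it is known to rise in sensory neurons after peripheral nerve injury.

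One gene stood out. Cacna2d1 fell 2.57-fold in contused cord, 1 of 3 probe sets of Cacna1c rose 1.45-fold, and no other member passed the test. Of 15 tested probe sets 1 was lower, against 9.59% of all tested probe sets, and 1 was higher, against 7.79%. Among tested probe sets whose mean log2 signal lay in the members' range, 7.08% were lower and 7.48% higher. The members' counts were thus near the background, and as a family they did not stand apart by the number of calls. The median log2 change of the 15 was -0.17, beside -0.005 over all tested probe sets.

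A probe set was tested where at least 3 of the 6 arrays lay above a floor of 61.6 signal units, the pooled 25th percentile. Of the 21 member probe sets 15 passed (71.4%, beside 76.7% of all probe sets), and these covered 9 genes. The 6 that did not were the only probe set of Cacnb4, 4 of the 5 of Cacna1d and 1 of the 4 of Cacna1a. Changes were fitted with limma across all 6705 tested probe sets on log2 signals with values under the floor set to it, and adjusted p-values are Benjamini-Hochberg values over that whole set.

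Promoter windows of Cacna2d1 and Cacna1c, the genes with a probe set past the threshold, are shown to place them in the genome. The arrays measured transcripts and not these windows. Both come from RefSeq annotation of build GRCr8, 250 bases before to 50 after a transcript start, and 7 of the 10 members had such a window. The Cacna2d1 window is the most upstream of 3 and lies at chr4:20330098-20330397 on the minus strand. The Cacna1c window lies at chr4:154051699-154051998, also on the minus strand. Capitals mark GGGCGG or its reverse complement CCGCCC, the GC box, with overlapping and adjacent matches run together.
Cacna2d1: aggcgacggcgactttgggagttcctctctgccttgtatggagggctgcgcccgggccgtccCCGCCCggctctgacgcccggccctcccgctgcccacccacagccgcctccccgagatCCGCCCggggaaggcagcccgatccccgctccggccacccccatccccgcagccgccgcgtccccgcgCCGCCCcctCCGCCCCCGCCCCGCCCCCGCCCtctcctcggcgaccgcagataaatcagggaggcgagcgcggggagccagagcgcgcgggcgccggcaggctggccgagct
Cacna1c: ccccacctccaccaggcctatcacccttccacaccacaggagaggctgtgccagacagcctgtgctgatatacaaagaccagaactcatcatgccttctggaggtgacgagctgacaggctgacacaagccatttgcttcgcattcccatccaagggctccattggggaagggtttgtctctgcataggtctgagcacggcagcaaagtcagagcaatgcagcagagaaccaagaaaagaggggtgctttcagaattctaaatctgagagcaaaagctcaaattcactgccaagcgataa
The Cacna2d1 window had 78.3% G and C and 7 GC boxes counted on both strands. The Cacna1c window had 51.7% G and C, equal to the median over all 33469 windows of the table, and 0 GC boxes. A GC box occurred in 33.1% of all windows. The letters TATAAA, on either strand, occurred in neither of the printed windows and in 14.2% of all. A match describes the letters and is not evidence of a factor bound there.

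**Figure D1:**
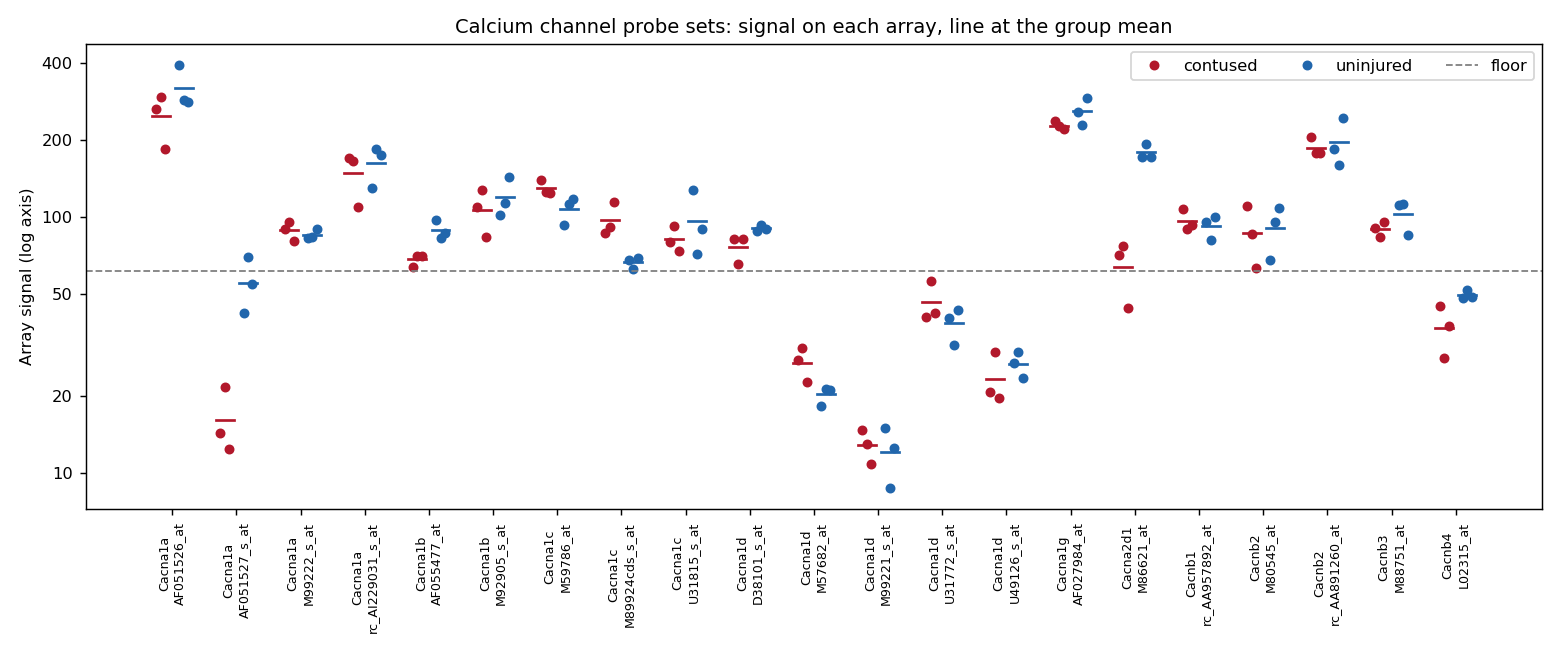
Signal (log axis) of the 21 calcium channel probe sets on each of 3 contused (red, left) and 3 uninjured (blue, right) arrays, with a line at each group mean and the floor of 61.6 dashed. Cacna2d1 is the tested probe set with the widest gap, 44.0 to 76.7 in contused cord against 172 to 192 in uninjured cord, and 5 probe sets lie below the floor on every array.

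Among the accessory subunits, Cacna2d1 (probe set M86621_at) gave 70.8, 76.7 and 44.0 signal units in contused cord, against 172, 192 and 172 in uninjured cord. Every contused array lay well below every uninjured one, and contused array 3, the lowest, was under the floor. The means were 63.8 ± 17.5 in contused cord and 179 ± 11.4 in uninjured cord (SD, n = 3 each). The log2 change was -1.36 (SE 0.14, 95% interval -1.67 to -1.05, limma adjusted p = 0.000145). By p it ranked 69 of 6705 and by size of fall 49. Since 1 contused array lay at the floor, the fold of 2.57 understates the gap. With no floor the log2 change was -1.52, and with a floor at the pooled 50th percentile, above all 3 contused values, it was -0.51 (adjusted p = 0.00374). It passed under all 17 alternatives that bear on single probe sets, at an adjusted p of 0.0162 or less, also with each array left out in turn.

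Markers of neurons fell on the same arrays: 16 of 18 tested genes were lower and 0 higher, with a median log2 change of -1.16. Their summed signal was 9914 to 10847 in contused cord and 20069 to 23358 in uninjured cord. The brightest, the neurofilament genes Nefl and Nefm, averaged 1764 ± 79.4 and 1500 ± 83.5 in contused cord, against 3292 ± 247 and 2693 ± 260 in uninjured cord. In bulk tissue, fewer cells of a type and less RNA per cell cannot be told apart. Markers of microglia and macrophages were higher in 12 of 13 cases, of oligodendrocytes lower in 4 of 9 and of astrocytes higher in 2 of 10. Motor neuron markers were lower in 3 and higher in 1 of 8 cases. Over all tested genes 9.91% were lower and 7% higher. The part of these cell types in the calcium channel values was not tested beyond the neuron ratio given further on.

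The beta subunits, which bind the pore from the cytoplasm, showed no call. Cacnb1, which also serves skeletal muscle, gave 107, 89.4 and 92.6 in contused cord, against 95.7, 81.3 and 100 in uninjured cord, a log2 change of 0.06 (95% interval -0.24 to 0.37). The 2 groups covered much the same range. Cacnb3, a beta subunit of neurons and smooth muscle often found with N-type pores, gave 90.3, 83.7 and 95.3 against 111, 112 and 84.7 in uninjured cord. Its groups overlapped through uninjured array 3, and the log2 change was -0.18 (95% interval -0.51 to 0.14, adjusted p = 0.452).

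Cacnb2, a beta subunit prominent in heart, was read by 2 probe sets that gave the same picture. The brighter, rc_AA891260_at, had 205, 177 and 177 in contused cord, against 184, 160 and 244 in uninjured cord, and a log2 change of -0.05 (95% interval -0.45 to 0.34). The dimmer, M80545_at, had 110, 86.1 and 63.3 against 68.1, 95.5 and 108 in uninjured cord, with a log2 change of -0.07 (95% interval -0.56 to 0.41). Both pairs of groups overlapped across most of their range.

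Cacnb4, a neuronal beta subunit whose loss causes ataxia in mice, was below the floor on all arrays and was not tested. Its values were 44.9, 28.2 and 37.6 in contused cord, against 48.2, 52.0 and 48.5 in uninjured cord. The contused values were all lower, at a level where the floor leaves no order.

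**Figure D2:**
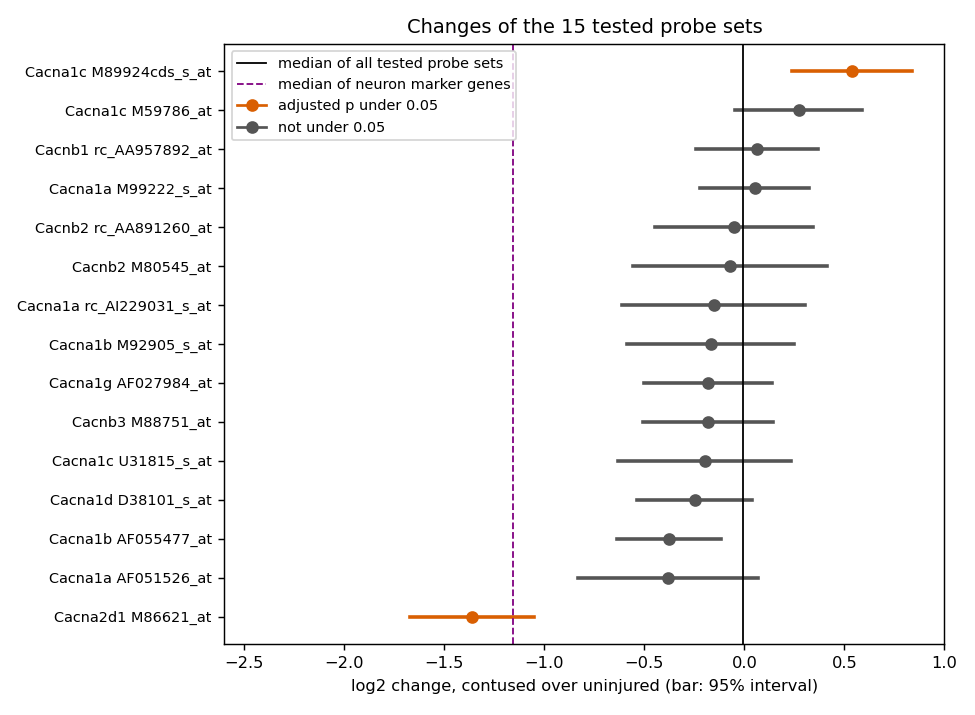
Log2 change (contused over uninjured, horizontal axis) with 95% intervals for the 15 tested calcium channel probe sets, those with an adjusted p under 0.05 in orange, with the median of all tested probe sets (solid line, -0.005) and of neuron markers (dashed, -1.16). Cacna2d1 at -1.36 has an interval, -1.67 to -1.05, that includes the neuron median. The intervals of the 13 uncalled probe sets lie to the right of that median, which their being uncalled largely sets.

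Of the terminal pores, Cacna1a, the P/Q-type pore of most central synapses, had 4 probe sets. Those tested were all uncalled with overlapping groups, and the dimmest was not tested. The brightest, AF051526_at, had 263, 293 and 184 in contused cord, against 391, 286 and 282 in uninjured cord (log2 change -0.38, 95% interval -0.83 to 0.07, adjusted p = 0.238). The groups overlapped through contused array 2. For rc_AI229031_s_at the values were 170, 165 and 109 in contused cord, against 130, 184 and 175 in uninjured cord, and the groups overlapped (log2 change -0.15, 95% interval -0.61 to 0.31). For M99222_s_at they were 90.1, 95.7 and 80.4 against 82.6, 83.8 and 89.7 in uninjured cord (log2 change 0.05, 95% interval -0.22 to 0.32). The ending _s_at marks a probe set whose probes can match several transcripts, so isoforms or relatives can add to its signal.

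The dimmest Cacna1a probe set, AF051527_s_at, was separated between groups below the level at which values were tested. It had 14.3, 21.7 and 12.4 in contused cord, against 42.0, 69.6 and 54.5 in uninjured cord, and only uninjured array 2 was above the floor. In a fit of all 8740 probe sets with no floor and no filter, a setting chosen after these values were seen, its log2 change was -1.79 (SE 0.27, adjusted p = 0.00646). In that fit 6.52% of probe sets were lower and 5% higher, and among the 21 member probe sets 2 were lower, this one and Cacna2d1, and 0 higher. At that level the share of the signal that is specific to the gene is not known.

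Cacna1b, the N-type pore and the target of the pain drug ziconotide, had 2 probe sets, both with lower means in contused cord. AF055477_at had 63.7, 70.6 and 70.4 in contused cord, against 97.0, 82.7 and 86.5 in uninjured cord. The groups did not overlap, and the log2 change of -0.38 (SE 0.12, 95% interval -0.64 to -0.12) just missed the threshold at an adjusted p of 0.0508. It passed with quantile normalization (-0.44, adjusted p = 0.0257) and with the filter relaxed to 1 array above the floor (0.0319). The range over all alternatives was 0.0257 to 0.139. M92905_s_at had 109, 127 and 83.5 against 102, 113 and 143 in uninjured cord, with overlapping groups (log2 change -0.17, 95% interval -0.58 to 0.25).

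Of the L-type pores, Cacna1c, the main L-type channel of smooth muscle, heart and many neurons, had 3 probe sets. M89924cds_s_at had 86.4, 91.5 and 114 in contused cord, against 67.8, 62.6 and 69.4 in uninjured cord. The groups did not overlap, and the log2 change was 0.54 (SE 0.14, 95% interval 0.24 to 0.84, adjusted p = 0.0194). The uninjured values lay just above the floor of 61.6, and as an _s_at probe set its signal can include other transcripts. M59786_at was also higher on every contused array, with 139, 125 and 124 in contused cord, against 93.4, 112 and 117 in uninjured cord, and did not pass (log2 change 0.27, 95% interval -0.05 to 0.59, adjusted p = 0.239). U31815_s_at had 79.6, 91.8 and 73.6 against 127, 71.5 and 89.7 in uninjured cord, with overlapping groups and a log2 change of -0.20 (95% interval -0.63 to 0.23).

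The rise of M89924cds_s_at was the less stable of the 2 calls. It was lost without uninjured array 2 (adjusted p = 0.0762) or uninjured array 3 (0.0596), without the filter on dim probe sets (0.0666) and in a plain linear model (0.0987). Markers of some cell types other than neurons and glia were measured on the same arrays. Of smooth muscle and pericyte markers 0 of 4 tested genes passed in limma, with a summed signal of 967 to 1119 in contused cord and 893 to 1287 in uninjured cord, and Cnn1 was below the floor throughout. Of endothelial markers 0 of 5 passed, with a sum of 849 to 891 against 911 to 957 in uninjured cord. Fibroblast and meningeal markers rose for 6 of 11 genes and fell for 0, with a sum of 15200 to 18294 in contused cord and 6837 to 12134 in uninjured cord. Over all tested genes 7% were higher and 9.91% lower. The part of these cell types in the Cacna1c value was not tested.

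Cacna1d, the L-type pore that opens at more negative voltages and carries persistent currents in motor neurons, was read by 1 tested probe set, D38101_s_at. It had 82.1, 65.3 and 81.7 in contused cord, against 88.0, 92.7 and 90 in uninjured cord. Every contused value was lower, and the log2 change of -0.25 (95% interval -0.53 to 0.04) did not pass (adjusted p = 0.230). The other 4 probe sets of the gene had group means of 12.1 to 46.4, below the floor on every array. Of these, M57682_at alone did not overlap between groups, with 27.6, 30.7 and 22.6 in contused cord, against 18.3, 21.4 and 21.2 in uninjured cord, the opposite order to D38101_s_at.

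Cacna1g, the T-type pore, was among the brighter and steadier members, with 236, 226 and 220 in contused cord, against 257, 229 and 291 in uninjured cord. The groups overlapped slightly, at uninjured array 2. The log2 change was -0.18 (95% interval -0.50 to 0.14, adjusted p = 0.450).

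Groups did not overlap, on the floored scale, for 3 of the 15 tested probe sets lower in contused cord (Cacna2d1, AF055477_at of Cacna1b and D38101_s_at of Cacna1d), against 18.2% of all tested probe sets. For 2 probe sets, both of Cacna1c, they did not overlap with contused cord higher, against 16.6% of all. Those shares are near the background. Across the 13 uncalled probe sets the log2 changes ran from -0.38 to 0.27, and the lowest limit of any of their 95% intervals was -0.83. That limit lies above the median of neuron markers, -1.16. These probe sets were picked as uncalled, which itself limits how low their intervals can reach. The comparison is therefore no result about them.

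The members were then set against neuron markers on the same array, as the log2 signal of each probe set minus the mean log2 signal of the 18 tested neuron markers. That mean was 8.54, 8.52 and 8.77 on the contused arrays and 9.67, 9.80 and 9.86 on the uninjured arrays, a difference of -1.17. For Cacna2d1 the ratio averaged -2.49 ± 0.29 in contused cord and -2.30 ± 0.12 in uninjured cord (SD, n = 3 each), and the groups overlapped. Its difference of -0.20 gave p = 0.4 in a two-sided exact permutation test, which cannot go below 0.1 in this design. Over the alternatives it ran from -0.36 with no floor to 0.63 with the pooled 50th percentile as the floor, which lies above all 3 contused values, and it was -0.03 without contused array 3. A p of this size does not show that Cacna2d1 and the neuron markers changed alike.

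For 13 of the 15 tested probe sets the ratio was higher on every contused array than on any uninjured array, at the smallest p the exact permutation test allows, 0.1. The same held for 94.5% of all tested probe sets, and the opposite, contused arrays lower without overlap, for 0.656%. Since the neuron mean was 1.17 lower in contused cord, a probe set with no change of its own had a difference near that size, and the median over all tested probe sets was 1.16. The count of 13 is therefore no result about the members. Their differences ran from 0.79 for AF055477_at of Cacna1b to 1.70 for M89924cds_s_at of Cacna1c. The remaining probe set, AF051526_at of Cacna1a, had a difference of 0.78 with overlapping groups (exact permutation p = 0.2). A ratio of this kind shows unequal change and does not say which side moved.

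**Figure D3:**
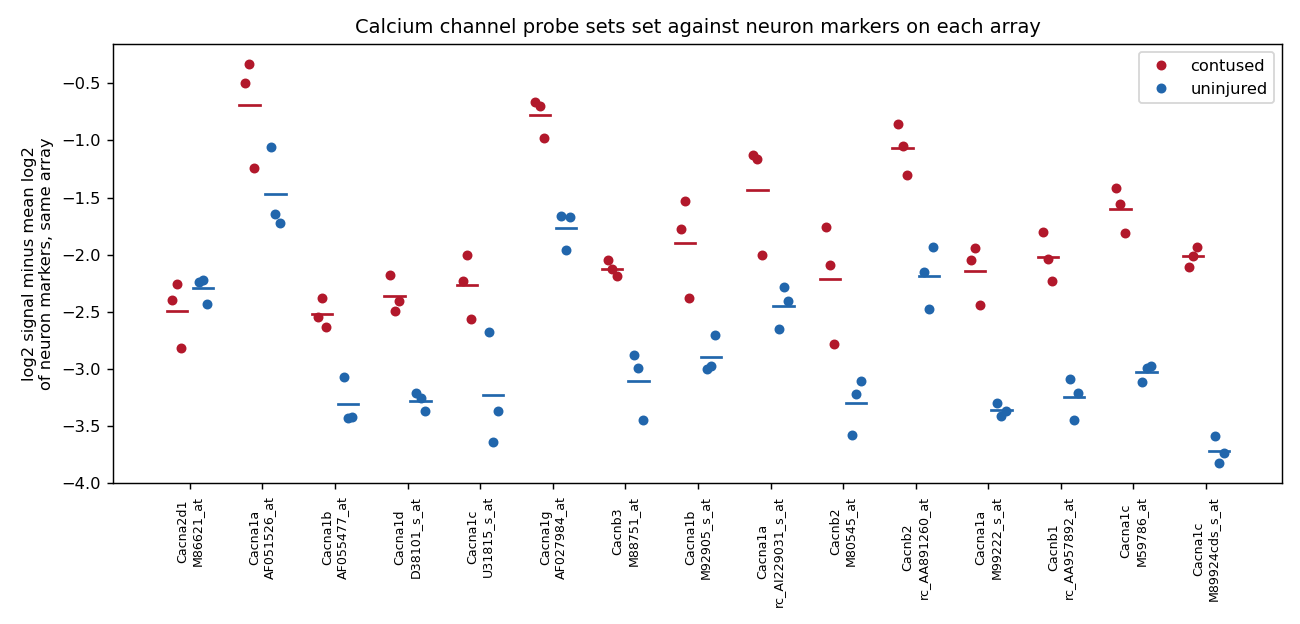
Log2 signal of each tested calcium channel probe set minus the mean log2 signal of 18 neuron markers on the same array (vertical axis), for 3 contused (red, left) and 3 uninjured (blue, right) arrays, with lines at group means. The groups overlap for Cacna2d1 and for AF051526_at of Cacna1a, and the contused arrays lie higher for the other 13, as they did for 94.5% of all tested probe sets.

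The 5 named genes whose log2 signals followed Cacna2d1 most closely over the 6 arrays were Fdps, an enzyme of isoprenoid and cholesterol synthesis (Pearson r = 0.997), Morf4l2 (0.997), Ppdpf (0.995), Scd, the stearoyl-CoA desaturase (0.994), and the neurofilament gene Nefh (0.993). These values describe 6 points in 2 groups, so they mostly record that each gene was lower in all 3 contused arrays. Fdps averaged 347 ± 42.2 in contused cord and 855 ± 74.0 in uninjured cord.

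Other channel subunits outside the 10 were read for 4 further genes, and the related sodium leak channel Nalcn was listed with them. Of these 5 genes 0 were lower and 0 higher in limma, under every alternative run. Nalcn was the only one of them with an unadjusted p under 0.05. Its brighter probe set had 224, 281 and 275 in contused cord, against 306, 411 and 336 in uninjured cord, and did not overlap between groups (log2 change -0.43, adjusted p = 0.0976). Cacng1, a subunit of the skeletal muscle channel, had a log2 change of 0.31 (adjusted p = 0.359), and Cacna1s, the pore of that channel, -0.26 (0.477). The T-type pore gene Cacna1h and the R-type pore gene Cacna1e had log2 changes of 0.20 and 0.09.

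The release machinery that calcium entry through P/Q- and N-type channels sets off fell for 15 of 31 tested genes and rose for 0, against 9.91% and 7% of all tested genes. Their median log2 change was -0.44, beside -0.02 over all tested genes. This list, and the regulator and calcium removal lists below, were chosen with earlier results of these data known. Counts above those shares are therefore not independent evidence. Dnm1, the dynamin of vesicle retrieval, had 597, 505 and 554 in contused cord, against 1348, 1228 and 1404 in uninjured cord, and fell 2.41-fold (adjusted p = 0.000117). Cplx1, a clamp of the fusion complex, fell 2.53-fold (adjusted p = 0.000186), with 281 to 351 in contused cord and 698 to 847 in uninjured cord. Both were separated by far more than their spread.

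The vesicle SNARE gene Vamp1 fell 2.22-fold, Syn2, a synapsin that tethers vesicles, 2.46-fold and Snap25, a SNARE of the plasma membrane that also binds these channels, 2.24-fold. Lin7b, a scaffold gene of the synapse, was below the floor on all contused arrays, at 48.8 ± 5.55, against 135 ± 14.7 in uninjured cord, and was at least 2.19-fold lower. In a plain linear model without shared variances 6 genes of the list were lower. Dnm1, Snap25, Syn1 and Syt1 of this list are on the list of neuron markers too.

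Among genes whose products regulate the channels, by phosphorylation, G proteins or calcium sensing, 7 of 28 were lower and 1 higher (median log2 change -0.31). Of all tested genes 9.91% were lower and 7% higher. Cabp1, a neuronal calcium sensor that binds P/Q- and L-type pores, had 178, 172 and 173 in contused cord, against 395, 451 and 482 in uninjured cord, and fell 2.53-fold (adjusted p = 0.000146). The protein kinase A genes Prkar1b, Prkaca and Prkacb fell 2.25-, 1.65- and 1.69-fold, the calcineurin gene Ppp3ca 2.06-fold and Gnai1, an inhibitory G protein subunit, 1.93-fold. Of Prkacb 1 of 2 tested probe sets passed. Gnai2, the G protein subunit common in immune cells, averaged 1341 ± 42.7 in contused cord and 993 ± 71.3 in uninjured cord (log2 change 0.44, adjusted p = 0.0244). The count of 1 higher became 0 without contused array 1 or 2 or uninjured array 1 or 3. It became 2 with 1 array above the floor required, with arrays scaled to a common trimmed mean and with eBayes without a trend. With the probe set of smallest p for each gene 11 genes were lower, but this choice favours calls in any set of genes. The share over all genes under that choice is not given here.

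Transcripts for calcium removal, binding and storage fell for 7 of 20 genes and rose for 0 (median log2 change -0.27). The shares over all tested genes were 9.91% and 7%. The cytosolic calcium buffers parvalbumin (Pvalb), calretinin (Calb2) and calbindin (Calb1) fell 3.63-, 2.62- and 1.68-fold. Pvalb had 122, 107 and 128 in contused cord, against 337, 496 and 479 in uninjured cord (adjusted p = 0.000102). The plasma membrane calcium pump genes Atp2b2 and Atp2b3 fell 2.31- and 2.18-fold, with 3 of 3 and 2 of 3 tested probe sets past the threshold, and the sodium-calcium exchanger gene Slc8a3 fell 1.45-fold. The count of 7 became 4 without contused array 2 or uninjured array 3, and 3 in a plain linear model.

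**Figure D4:**
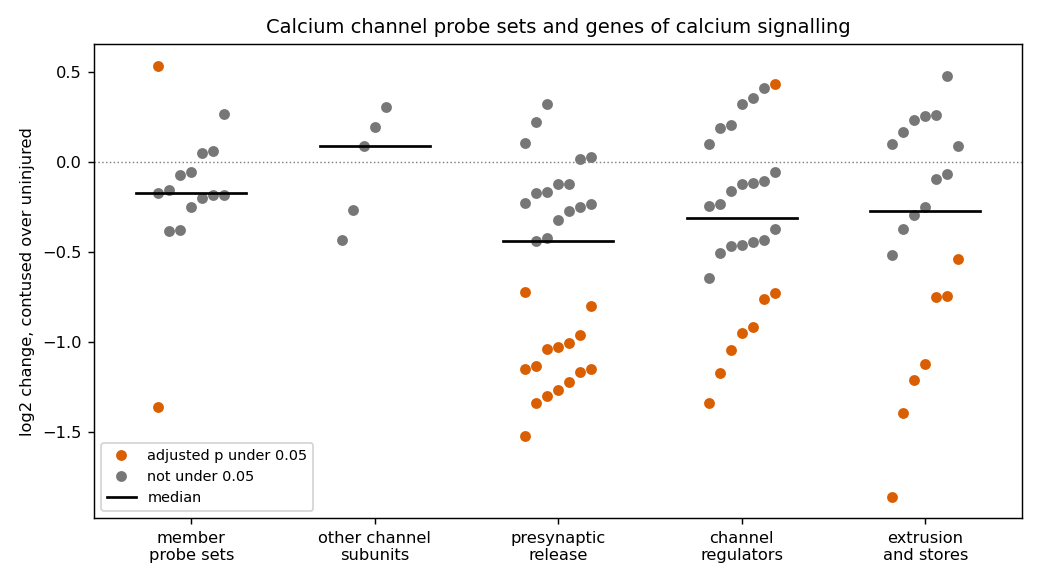
Log2 change (contused over uninjured, vertical axis) of the 15 tested calcium channel probe sets and of the tested genes of 4 lists, 1 point each, those with an adjusted p under 0.05 in orange, with a line at each median. The release, regulator and extrusion lists have 15 of 31, 7 of 28 and 7 of 20 genes that fell, against 9.91% of all tested genes. The lists were chosen with earlier results of these data known. Of the channel members only Cacna2d1 lies below -1.

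As facts of the whole series, array medians ran from 122 to 127 signal units, and 73.1% to 76.0% of probe sets were above the floor on each array. The ratio of 3' to 5' signal of the GAPDH control, which rises as RNA degrades, was 1.08 to 1.12 on contused and 1.13 to 1.17 on uninjured arrays. Of the markers on the array, 9 of 9 oligodendrocyte, 10 of 10 astrocyte and 18 of 20 neuron genes were tested, beside 76.7% of all probe sets. The neuron gene Syt1 was below the floor throughout. Markers of other tissues passed as well, such as 11 of 13 skeletal muscle genes, so these counts do not identify the tissue.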

How the data were processed

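RNA of contused and uninjured rat spinal cord was measured on one-colour oligonucleotide arrays, 3 contused and 3 uninjured. The deposited table holds 1 intensity per probe set and array in linear units, as the range of the values shows, and 21 to 32 values per array are below 0. The summary, background correction and scaling that the authors applied are not given in the sources used. Trimmed means (2% at each end) differed by 8.54% between arrays, within a limit of 10%, so values were used as deposited. Groups come from the sample titles, and 0 columns belong to other samples.

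Of 8799 probe sets, 59 controls were left out. Gene names come from the array annotation, updated by gene identifier to GRCr8 symbols; 7006 probe sets have 1 gene, 308 several and 1426 none. Values under 61.6, the pooled 25th percentile, were set to that floor (log2 5.94). The 6705 probe sets above it on at least 3 arrays were tested two-sided with limma 3.58.1 in R 4.3.3 (lmFit, eBayes with an intensity trend, 4 residual degrees of freedom), threshold 0.05. Errors of log2 changes are limma standard errors, and intervals are 95% intervals from that fit. The number of arrays limits the precision. The procedure was tested on simulated data whose added changes were larger than those of all tested members but Cacna2d1. That test gives no measure of how often smaller changes are found. For lists, the brightest tested probe set stood for a gene (3955 genes).

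The members and the lists were chosen with earlier results of these data known. Named genes are all members and other subunits, up to 6 called genes per list and direction by p, the 2 brightest markers and the 5 genes most like Cacna2d1; Syn1 and Syt1 were named after their values were seen. The alternatives were the floor, filter, offset, normalization, variance model, probe set for a gene, replicate block and each array left out. Plots used Python 3.11.15 and matplotlib 3.10.9.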

Additional observations from a re-analysis of the deposited data

How the results depend on the processing

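Of 18 alternatives, 17 were planned and 1, with no floor and no filter, was chosen after seeing the data. Taking the probe set of smallest p for a gene, 1 of the 17, bears only on the gene lists. The count of member probe sets lower after contusion was 2 in place of 1 with quantile normalization, with 1 array above the floor required, and with no floor and no filter. The count higher was 0 in place of 1 with the floor at the 50th percentile, without the filter, in the plain linear model and with no floor and no filter, and 0 to 1 with an array left out. At the 50th percentile floor of 125, M89924cds_s_at of Cacna1c, at most 114, lay below the floor on every array and was not tested. For the other settings the cause was not examined. Over all probe sets 1165 calls became 662 without the filter and 450 in the plain linear model, and 659 (without uninjured array 3) to 1260 with an array left out. Leaving out an array turned the sign of 6 uncalled members: rc_AA957892_at of Cacnb1 (-0.028 to 0.122), M99222_s_at (-0.004 to 0.12) and rc_AI229031_s_at (-0.308 to 0.052) of Cacna1a, M80545_at (-0.27 to 0.14) and rc_AA891260_at (-0.19 to 0.12) of Cacnb2, and U31815_s_at of Cacna1c (-0.392 to 0.023). The labels do not state that the replicate numbers pair the arrays. Deviations of same-numbered arrays correlated at 0.04, 0.22 and -0.24, and so few arrays cannot settle whether they were paired. With the replicate block 1200 probe sets were called, and 1 member was lower and 1 higher. Most members lay within 3 times the floor, where background limits what a change can show.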
